A study of Homo sapiens with 6 samples.

Results

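The genes described here are 57 genes that act in mitosis: kinesin motors, spindle and midzone proteins, mitotic kinases, cyclins with CDK1, regulators of the anaphase promoting complex (APC/C), condensin and other chromosome proteins, and 3 proliferation-linked genes. They were taken by name from a list, and each was read from the probe set that carries its symbol alone and has the highest mean log2 signal over all 6 arrays. All 57 were found among the 19775 genes named on the array, and all 57 passed the brightness filter, as did 12216 genes in all.

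Mitosis is driven by CDK1 bound to cyclin A and cyclin B, and its entry is set by the balance between the CDC25 phosphatases, which activate CDK1, and the kinases WEE1 and PKMYT1, which restrain it. Kinesins and microtubule-binding proteins then build the spindle and the midzone, condensin compacts the chromosomes, and the APC/C with CDC20 marks cyclin B and securin for destruction so that separase can part the sister chromatids. Most of these genes are transcribed late in the cell cycle, and their mRNA is commonly used as a measure of the fraction of cells in cycle in carcinoma samples.

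The samples were RNA of OVCA432, a human line of high grade serous ovarian carcinoma cells long kept in culture. Cells of all samples were kept in serum-free RPMI medium for 24 h. Those of the 3 MFAP5 samples then received 200 ng/mL of recombinant human microfibrillar associated protein 5 (MFAP5), a glycoprotein of extracellular microfibrils, in fresh serum-free medium, and those of the 3 control samples received solvent. RNA was taken 48 h later, and each sample was hybridised to its own Affymetrix U133 Plus 2.0 array, so the values come from a single cell line without serum.

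Signals are MAS5 values, a linear brightness per probe set, scaled by array to a trimmed mean of 500.07. All 12 epithelial and Mullerian markers, PAX8, WT1 and EPCAM among them, lay on every array above the brightest Bacillus control probe set, a measure of background with a signal of 26.4 to 55.9. The summed fibroblast markers were 269 to 314 in control and 269 to 379.5 in MFAP5 cells, the leukocyte markers 65.2 to 153 in control and 114 to 185 in MFAP5 cells and the endothelial markers 137 to 208 in control and 189 to 248 in MFAP5 cells. Among these 3 lists, 2 of 7 fibroblast, 0 of 5 leukocyte and 0 of 4 endothelial markers on the array exceeded the Bacillus control on all 6 arrays. The 3'/5' signal ratio of GAPDH and ACTB, a measure of RNA integrity, differed between the groups by 0.03 and -0.01 on the log2 scale (exact permutation test, two-sided p = 0.5 and 0.6, with 0.1 the smallest p that 3 against 3 arrays allow).

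Most of these mitotic genes had lower mRNA with MFAP5. Of the 57 genes 41 fell, none rose and 16 did not pass the test (limma, Benjamini-Hochberg adjusted p below 0.05 over 27307 probe sets), which is 71.9% lower, while 15.3% of all genes tested were lower and 14.6% higher. At an unadjusted p below 0.05, 50 of the 57 genes were lower and 0 higher, beside 2666 and 2515 of all 12216 genes. None of the 57 was called higher under 15 alternative settings. With each array centred on its median in place of the deposited scaling, 53 fell, and the split over all genes moved from 1869 lower and 1780 higher to 3438 and 1118, with the median of all genes at -0.15. The median log2 fold change was -0.54, with a range from -1.06 to 0.25, beside a median of -0.01 over all genes tested. The falls were moderate in size. In 22 genes the level was lower by 1.5-fold or more, as for 3.49% of all genes, and in 3 of these, HMMR, KIF20A and KIF18A, by 2-fold or more, as for 0.696% of all genes. The MFAP5 signals all lay below the control signals in 48 of the 57 genes, as in 23.6% of all genes. Only PKMYT1 and FZR1 had positive values, neither was called, and PKMYT1 turned negative on median-centred arrays. In RNA from whole cultures, fewer cells in mitosis and less of these mRNAs per cell cannot be told apart, and the list was assembled with results of these data known, so these counts are a description.

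**Figure D1:**
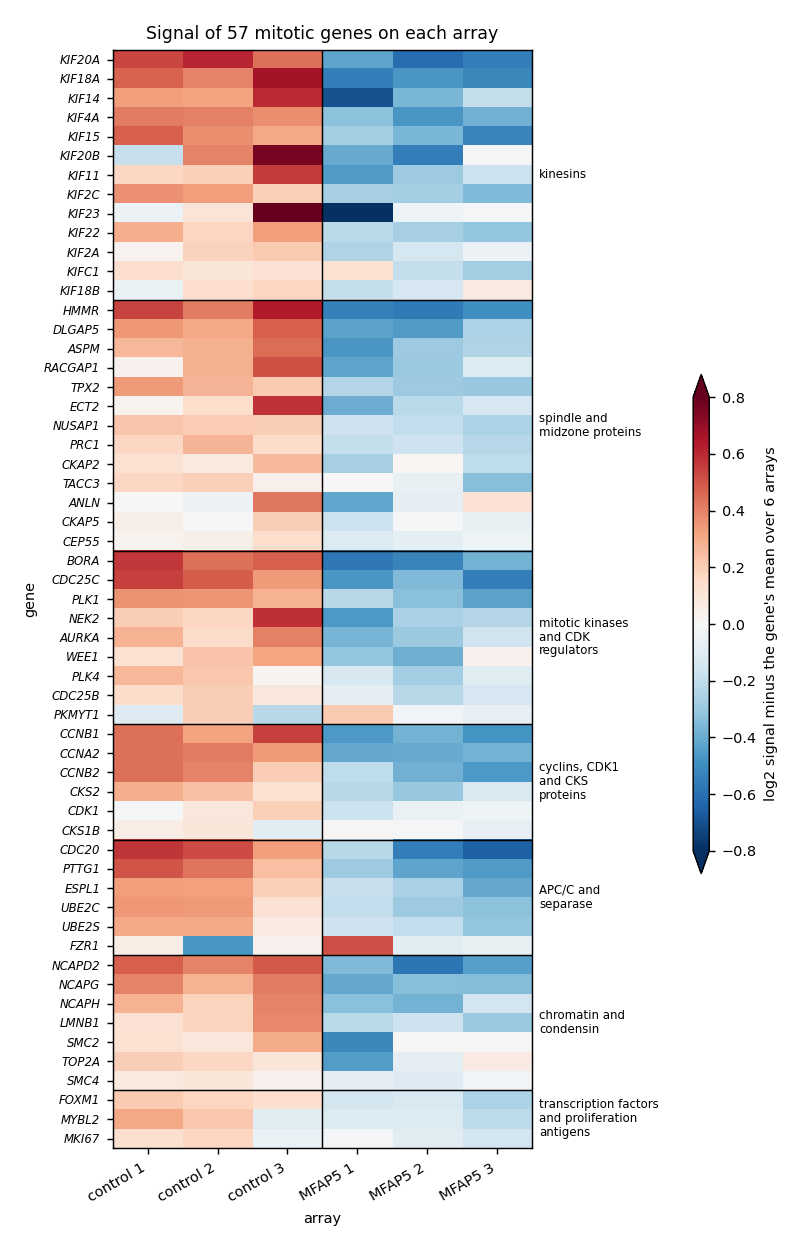
Log2 signal of the 57 genes (rows, ordered by fold change within each role group) on the 3 control and 3 MFAP5 arrays (columns), minus the mean of each gene over the 6 arrays; colours end at 0.8 in either direction. The control columns are red and the MFAP5 columns blue in most rows, with mixed colours in PKMYT1, FZR1, CKS1B, KIF18B, ANLN, KIFC1 and MKI67 among others.

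Promoters of late cell cycle genes are known for the cell cycle genes homology region (CHR), an element read by the DREAM complex and by the MuvB complex with B-Myb and FOXM1, and for CCAAT boxes bound by NF-Y. The letters TTTGAA (for the CHR) and CCAAT were searched on both strands in RefSeq promoter windows (GRCh38.p14). Windows ran from 250 bases before to 50 bases after an annotated start. Variants of the CHR with other letters were not searched, so absence of TTTGAA does not mean absence of a CHR. Of the 57 genes 50 had a window, 66 windows in all. TTTGAA stood in 38 windows (57.6%), against 10.4% of the 14588 windows of genes past the brightness filter and 15.2% of all 35116 windows in the table. CCAAT stood in 43 windows (65.2%), against 34.6% in each of those larger sets, and both stood in 45.5%, against 4.21% of windows of genes past the filter. The kinetochore and checkpoint genes, a list near in function, had TTTGAA in 48.5%, CCAAT in 63.6% and both in 30.3% of 33 windows. These letters are therefore not particular to the 57 genes. Genes of the DREAM and MuvB complexes, RB and E2F had TTTGAA in 32.3% of 31 windows. Their shares with CCAAT (35.5%) and with both (6.45%) were near those of genes past the filter. A match describes letters in a window and is not a mapped binding site.

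The matches were not spread evenly. TTTGAA was most frequent 26 to 50 bases before the start, in 19.7% of the windows of these genes and 0.905% of those of genes past the filter. CCAAT was most frequent 51 to 75 bases before it, in 39.4% against 9.36%. Windows are shown for genes on which the results below turn: both B-type cyclins, CDC20 and PLK1, the 3 genes with the largest falls, and the pair CKS1B and CKS2, which encode close relatives but differed in their fall. The 150 bases before the start are printed 5′ to 3′ on the strand of the gene, with both motifs and their reverse complements in capitals. Matches may overlap, as CCAAT on opposite strands does in HMMR.
CCNB1 promoter, chr5:69167000-69167149, plus strand: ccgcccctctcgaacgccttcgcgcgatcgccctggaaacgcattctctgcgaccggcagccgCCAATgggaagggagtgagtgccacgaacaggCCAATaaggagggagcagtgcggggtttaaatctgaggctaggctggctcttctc
CCNB2 promoter, chr15:59104996-59105145, plus strand: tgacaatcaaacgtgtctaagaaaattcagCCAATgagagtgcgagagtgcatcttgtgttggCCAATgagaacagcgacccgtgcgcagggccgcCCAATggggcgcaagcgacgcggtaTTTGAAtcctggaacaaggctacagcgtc
CDC20 promoter, chr1:43358831-43358980, plus strand: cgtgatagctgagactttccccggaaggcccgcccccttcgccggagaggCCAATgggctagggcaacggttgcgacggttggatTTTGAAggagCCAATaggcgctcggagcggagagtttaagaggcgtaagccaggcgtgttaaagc
PLK1 promoter, chr16:23678739-23678888, plus strand: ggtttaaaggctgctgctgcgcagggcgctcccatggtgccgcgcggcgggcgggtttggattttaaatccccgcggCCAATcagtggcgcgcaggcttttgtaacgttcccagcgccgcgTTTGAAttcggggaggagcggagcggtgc
HMMR promoter, chr5:163460482-163460631, plus strand: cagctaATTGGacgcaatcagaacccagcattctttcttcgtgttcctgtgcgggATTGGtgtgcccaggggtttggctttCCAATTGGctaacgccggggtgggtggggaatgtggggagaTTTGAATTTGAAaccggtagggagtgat
KIF20A promoter, chr5:138178962-138179111, plus strand: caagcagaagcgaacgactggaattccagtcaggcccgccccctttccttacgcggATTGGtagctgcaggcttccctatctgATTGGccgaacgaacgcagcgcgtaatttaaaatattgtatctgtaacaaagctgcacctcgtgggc
KIF18A promoter, chr11:28108157-28108306, minus strand: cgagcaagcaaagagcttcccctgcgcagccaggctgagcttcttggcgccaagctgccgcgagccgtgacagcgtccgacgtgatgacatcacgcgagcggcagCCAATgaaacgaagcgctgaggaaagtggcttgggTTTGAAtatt
CKS1B promoter, chr1:154974531-154974680, plus strand: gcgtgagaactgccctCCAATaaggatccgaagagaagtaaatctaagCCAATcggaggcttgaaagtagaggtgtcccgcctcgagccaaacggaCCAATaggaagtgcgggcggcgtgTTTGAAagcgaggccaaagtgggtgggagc
CKS2 promoter, chr9:89311045-89311194, plus strand: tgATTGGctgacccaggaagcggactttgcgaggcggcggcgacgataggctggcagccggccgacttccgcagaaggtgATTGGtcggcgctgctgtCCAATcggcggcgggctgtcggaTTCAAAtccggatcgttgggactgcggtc

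In CCNB2, 3 CCAAT matches began 120, 87 and 54 bases before the start and TTTGAA 29 bases before it. PLK1, CKS1B and CKS2 had a TTTGAA match, in either orientation, at 29 or 30 bases as well. HMMR held 2 adjacent TTTGAA matches, whereas CCNB1 and KIF20A held 2 CCAAT matches and no TTTGAA in these 150 bases. The median log2 fold change was similar with and without TTTGAA, at -0.57 in the 35 genes with it in any window and -0.53 in the 15 without it. The share called lower was smaller with it, 22 of 35 against 13 of 15. For CCAAT the medians were -0.57 in 39 genes with it, 30 of them lower, and -0.28 in 11 genes without it, 5 of them lower. These medians and shares were not tested, and CKS1B, which was not called, carries both motifs.

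**Figure D2:**
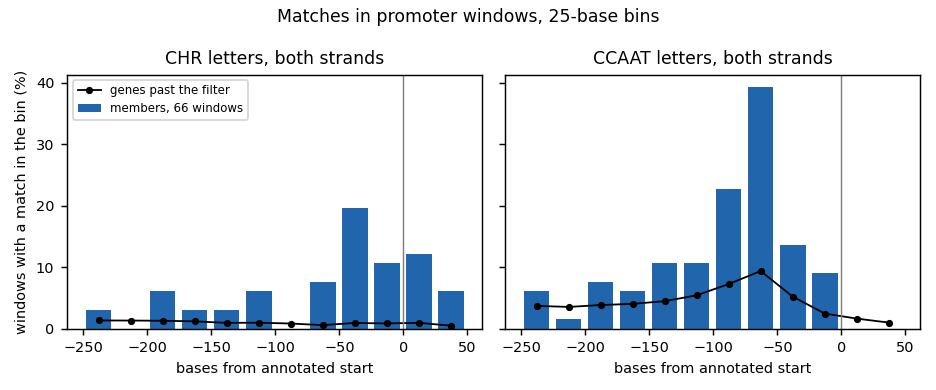
Share of promoter windows with a match (vertical axis, percent) by distance from the annotated start (horizontal axis, bases, in bins of 25), for TTTGAA (left) and CCAAT (right) on both strands. Bars are the 66 windows of the mitotic genes and the line is the 14588 windows of genes past the brightness filter; the bars peak at 19.7% and 39.4%.

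Kinesins are motors that move along or depolymerise microtubules. Of the 13 kinesins 10 fell and 3 were not called (median log2 fold change -0.61). KIF20A, a motor of the midzone needed for cytokinesis, had signals of 4355, 4586 and 4088 on the control arrays and 2248, 1971 and 2064 on the MFAP5 arrays. This was 2.08-fold lower (log2 fold change -1.05 ± 0.075, limma adjusted p = 9.34e-06; ± is the standard error, n = 3 arrays each, here and below). Every MFAP5 array lay well below every control array. KIF18A, which dampens chromosome movement at the metaphase plate, read 777, 739 and 889 in control and 383, 406 and 393 in MFAP5 cells, 2.03-fold lower (log2 fold change -1.02 ± 0.105, limma adjusted p = 0.0001). The MFAP5 values were close together and the third control was the highest. KIF14, which works with citron kinase in cytokinesis, read 1865, 1851 and 2239 against 913, 1147 and 1297 (1.79-fold lower, limma adjusted p = 0.00116). The chromokinesin KIF4A read 3451, 3433 and 3371 against 2068, 1879.9 and 1993 (1.73-fold lower, limma adjusted p = 2.68e-05). Neither gene had overlapping groups, and the MFAP5 arrays of KIF14 were spread more widely than those of KIF4A.

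The other kinesins that fell had smaller changes or less even arrays. KIF15 and KIF11, which both help keep the spindle bipolar, were 1.71-fold and 1.53-fold lower (limma adjusted p = 0.000264 and 0.00435). KIF2C, a microtubule depolymerase at centromeres, was 1.51-fold lower, and its second probe set past the filter fell as well (log2 fold change -0.68, limma adjusted p = 0.000249). The chromokinesin KIF22 was 1.44-fold lower (limma adjusted p = 0.00385), while its other probe set was not called (-0.25, limma adjusted p = 0.259). KIF20B, a motor of late cytokinesis, read 1061, 1587 and 2039 in control and 912, 823 and 1197 in MFAP5 cells, 1.56-fold lower (limma adjusted p = 0.049). It was the 1 gene called despite overlapping groups, and the call was lost without control replicate 2 or 3 or MFAP5 replicate 1 or 2 and in 4 further settings (limma adjusted p up to 0.159), with a log2 fold change of -0.43 without control replicate 3. KIF2A, a depolymerase at spindle poles, was 1.22-fold lower (limma adjusted p = 0.0288). Its call was lost without control replicate 2 or 3 or MFAP5 replicate 1 or 2 (limma adjusted p 0.0702 to 0.0949) and in 4 further settings, and its other probe set had a log2 fold change of 0.06.

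Of the 3 kinesins that were not called, KIF23, the motor of the centralspindlin complex, had a log2 fold change of -0.57 ± 0.249 (limma adjusted p = 0.122). It read 661, 732 and 1193 in control and 388, 666 and 677 in MFAP5 cells. The third control stood far above the others, the groups overlapped, and KIF23 passed the test on arrays centred on hybridisation controls (limma adjusted p = 0.0317). KIFC1, a minus-end motor that clusters extra centrosomes, read 1757, 1713 and 1735 against 1742, 1404 and 1318 (limma adjusted p = 0.125). The first MFAP5 array was level with the controls, and without it KIFC1 passed the test (log2 fold change -0.35, limma adjusted p = 0.0122). KIF18B had a value of -0.17 (limma adjusted p = 0.218) with overlapping groups.

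Among 13 spindle and midzone proteins 9 fell and 4 were not called (median -0.41). HMMR, a spindle pole protein also known as a hyaluronan receptor, had the largest fall of all 57 genes. Its signals were 3381, 3104 and 3612 in control and 1599, 1568 and 1656 in MFAP5 cells, 2.09-fold lower (log2 fold change -1.06 ± 0.075, limma adjusted p = 8.44e-06). All MFAP5 arrays lay far below the controls, and the other HMMR probe set was lower too (-0.85, limma adjusted p = 2.64e-05). DLGAP5, which stabilises kinetochore fibres, read 2012, 1966 and 2205 against 1180.3, 1155 and 1333 (1.69-fold lower, limma adjusted p = 0.00017). ASPM, a spindle pole protein whose loss causes small brain size, read 3325, 3373 and 3778 against 2008, 2263 and 2346 (1.58-fold lower, limma adjusted p = 0.000325), and 2 further ASPM probe sets fell. In neither gene did the groups overlap. RACGAP1, the partner of KIF23 in centralspindlin, read 2950.1, 3498 and 4095 in control and 2142, 2345 and 2661 in MFAP5 cells (1.47-fold lower, limma adjusted p = 0.00746). The controls of RACGAP1 spread widely, with the first close to the highest MFAP5 array.

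TPX2, which activates the kinase AURKA on spindle microtubules, was 1.46-fold lower (limma adjusted p = 0.00023). The microtubule bundlers NUSAP1 and PRC1 were 1.33-fold and 1.31-fold lower, with signals of 7547 ± 72.4 and 5557 ± 267 in control and 5674 ± 176 and 4229.7 ± 87.4 in MFAP5 cells (mean ± SD, n = 3; limma adjusted p = 0.000658 and 0.0014). The arrays of each group lay close together in both genes. ECT2, the exchange factor that switches on RhoA for the cleavage furrow, was 1.41-fold lower (limma adjusted p = 0.019), a call lost without MFAP5 replicate 1 or 2 (limma adjusted p = 0.0599 and 0.0504) and without an intensity trend (0.0829). Its other probe set past the filter fell (-0.56, limma adjusted p = 0.00414), but is of the type that can share probes with other genes. CKAP2 was 1.23-fold lower (limma adjusted p = 0.0319), a call lost in 8 of 15 settings, among them the fits without any 1 of the 3 control arrays, MFAP5 replicate 1 or MFAP5 replicate 3 (limma adjusted p up to 0.122 in all settings).

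The genes of this group that were not called all had negative values. TACC3 (clathrin-bound spindle protein), ANLN (anillin of the contractile ring) and CEP55 (abscission) had log2 fold changes of -0.27, -0.25 and -0.14 (limma adjusted p = 0.0866, 0.252 and 0.125). CKAP5, a microtubule polymerase, had -0.16 ± 0.080 (limma adjusted p = 0.168). In TACC3, CKAP5 and CEP55 every MFAP5 array was nevertheless below every control array.

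Of 9 mitotic kinases and regulators of CDK1 8 fell and only PKMYT1 was not called (median -0.55). BORA, the cofactor through which AURKA activates PLK1, read 1711, 1564 and 1607 in control and 776, 802 and 888 in MFAP5 cells, 1.98-fold lower (log2 fold change -0.99 ± 0.084, limma adjusted p = 3.13e-05). The groups were far apart. CDC25C, a phosphatase that activates CDK1, read 2969.7, 2841 and 2575 against 1473, 1589 and 1383, 1.89-fold lower (log2 fold change -0.92 ± 0.082, limma adjusted p = 4.3e-05). Its other probe set fell further, from 1580.2, 1099 and 1291 to 612, 473 and 473 (log2 fold change -1.34, limma adjusted p = 0.000149), the steepest of any probe set of the 57 genes past the filter. PLK1, the polo kinase that acts from mitotic entry to cytokinesis, read 483, 480.1 and 455 against 322, 298 and 279, 1.58-fold lower (log2 fold change -0.66 ± 0.114, limma adjusted p = 0.00237). NEK2, a centrosome kinase, read 2028, 1983 and 2649 against 1284, 1473 and 1503, 1.55-fold lower (log2 fold change -0.64 ± 0.115, limma adjusted p = 0.00303). The groups did not overlap in either gene, and the third control stood above the other controls in NEK2.

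AURKA, the kinase of spindle poles, was 1.46-fold lower on its brightest probe set (12354 ± 1106 in control and 8434 ± 638 in MFAP5 cells, mean ± SD, n = 3; limma adjusted p = 0.000947). A second bright AURKA probe set fell by a similar 0.53 on the log2 scale (limma adjusted p = 0.00252), and the dimmest past the filter was not called. WEE1, which restrains CDK1, was 1.36-fold lower (limma adjusted p = 0.0197), but its other probe set was not called (-0.29, limma adjusted p = 0.127). CDC25B, which activates CDK1, was 1.22-fold lower (limma adjusted p = 0.0132). The WEE1 call was lost without control replicate 2 or 3 or MFAP5 replicate 1 or 2 and without an intensity trend (limma adjusted p 0.0552 to 0.0832), and that of CDC25B without control replicate 2 or MFAP5 replicate 2, without an intensity trend and on arrays centred on hybridisation controls (limma adjusted p up to 0.118). PLK4, which starts centriole duplication, was 1.26-fold lower (limma adjusted p = 0.0229), a call lost in 6 settings, among them without control replicate 1 or 2 or MFAP5 replicate 2 (limma adjusted p up to 0.0982 in all settings). PKMYT1, the membrane-bound relative of WEE1, read 632, 777 and 580.0 against 784, 666 and 648 (log2 fold change 0.08 ± 0.128, limma adjusted p = 0.677). Its groups overlapped widely, and its probe set is of a type that can share probes with other genes.

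All 3 mitotic cyclins fell. CCNB1 (cyclin B1) had signals of 10093, 9273 and 10865 in control and 5389, 5721 and 5328 in MFAP5 cells, 1.84-fold lower (log2 fold change -0.88 ± 0.071, limma adjusted p = 2.26e-05). CCNA2 (cyclin A2) read 2617, 2578 and 2441 against 1455, 1461 and 1483, 1.74-fold lower (log2 fold change -0.80 ± 0.067, limma adjusted p = 2.79e-05). CCNB2 (cyclin B2) read 10200.3, 9883 and 8660.3 against 6536, 5767 and 5460.5, 1.62-fold lower (log2 fold change -0.69 ± 0.086, limma adjusted p = 0.000316). No MFAP5 array of any cyclin reached the lowest control, and the MFAP5 arrays of CCNA2 were nearly equal. The other probe sets of CCNB1 and CCNA2 fell as well (-0.61 and -0.70 on the log2 scale, limma adjusted p = 0.0229 and 0.000354). CKS2, a small subunit that binds CDK1, read 9697, 9343 and 8636 against 6789, 6441 and 7279, 1.35-fold lower (log2 fold change -0.43 ± 0.070, limma adjusted p = 0.00161). Its relative CKS1B, which also serves the SCF ubiquitin ligase in degrading p27, read 17925, 18446 and 16117 against 17357, 17115 and 16427 (log2 fold change -0.04 ± 0.066, limma adjusted p = 0.684). The CKS1B groups overlapped while those of CKS2 did not, but the difference between the genes was not tested. CDK1 itself read 11602, 12463 and 13373 against 10389.8, 11316 and 11425 on its brightest probe set (log2 fold change -0.18 ± 0.070, limma adjusted p = 0.0972); its groups did not overlap although it was not called.

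Around the APC/C, 5 of 6 genes fell (median -0.55). CDC20, the activator that starts anaphase, read 8086, 7801 and 6841 in control and 4654, 3705 and 3455 in MFAP5 cells, 1.94-fold lower (log2 fold change -0.95 ± 0.109, limma adjusted p = 0.000201). PTTG1 (securin), the inhibitor of separase, read 17196, 16288 and 14306 against 9915, 9049 and 8844, 1.72-fold lower (log2 fold change -0.78 ± 0.079, limma adjusted p = 9.49e-05), on a probe set of the type that can share probes with related genes. In both genes the groups were far apart and the third control was the lowest of the controls. ESPL1 (separase), the protease that cuts cohesin, read 2992, 2970.0 and 2709 against 2085, 1981 and 1784, 1.48-fold lower (log2 fold change -0.57 ± 0.080, limma adjusted p = 0.000679). Its other probe set fell by 0.49 on the log2 scale (limma adjusted p = 0.0113), so both the protease and its inhibitor were lower. UBE2C, the ubiquitin-conjugating enzyme that starts chains on APC/C substrates, read 11909.5, 11851 and 10148 against 8162, 7656 and 7455, 1.45-fold lower (log2 fold change -0.54 ± 0.076, limma adjusted p = 0.000695). UBE2S, which extends these chains, was 1.37-fold lower (limma adjusted p = 0.00228). FZR1 (CDH1), the activator that keeps the APC/C active after mitosis and in G1, had the highest value of the 57, with 236, 164 and 232 in control and 325, 214 and 218 in MFAP5 cells (log2 fold change 0.25 ± 0.210, limma adjusted p = 0.421). Its groups overlapped with the first MFAP5 array highest, its 3 other probe sets had values from 0.11 to 0.21, and none was called.

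Condensin I has 2 SMC subunits shared with condensin II (SMC2 and SMC4) and 3 subunits of its own. The 3 of its own, NCAPD2, NCAPG and NCAPH, all fell. NCAPD2 read 4927, 4659 and 4964 in control and 2772, 2372 and 2611 in MFAP5 cells, 1.88-fold lower (log2 fold change -0.91 ± 0.073, limma adjusted p = 2.11e-05). NCAPG read 3214, 2966 and 3262 against 1840.3, 1934 and 1926, 1.66-fold lower (log2 fold change -0.73 ± 0.068, limma adjusted p = 5.57e-05). NCAPH, the kleisin that closes the ring, read 1949, 1818 and 2118 against 1275, 1234 and 1453, 1.49-fold lower (log2 fold change -0.57 ± 0.090, limma adjusted p = 0.00133). None of these had overlapping groups. The shared SMC2 read 1445, 1414 and 1634 against 932, 1339 and 1328 (log2 fold change -0.34 ± 0.135, limma adjusted p = 0.0955) and SMC4 9551, 9672 and 9279 against 8562, 8408 and 8898 (-0.14 ± 0.057, limma adjusted p = 0.1). Both were below control on each MFAP5 array without passing the test, and the other SMC2 probe set had a positive value (0.09, limma adjusted p = 0.76). Whether these subunits changed less than the other 3 was not tested. LMNB1 (lamin B1), a nuclear envelope protein, read 3819, 3985 and 4606 against 3040.4, 3152 and 2878, 1.36-fold lower (log2 fold change -0.45 ± 0.081, limma adjusted p = 0.00294). TOP2A, the topoisomerase that untangles sister chromatids, read 4371, 4277 and 4075 against 2805, 3623 and 3985 (log2 fold change -0.30 ± 0.113, limma adjusted p = 0.0746). Its first MFAP5 array was much lower than the other MFAP5 arrays, and it passed the test without MFAP5 replicate 3 (limma adjusted p = 0.0262).

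Of the transcription factors FOXM1 and MYBL2 and the antigen gene MKI67, only FOXM1 passed the test on its brightest probe set. FOXM1, a forkhead factor of G2/M genes, read 3022, 2952 and 2875 in control and 2366, 2404 and 2198 in MFAP5 cells, 1.27-fold lower (log2 fold change -0.35 ± 0.067, limma adjusted p = 0.00419), on a probe set of the type that can share probes with other genes. The call was lost on arrays centred on hybridisation controls (limma adjusted p = 0.0581). MYBL2 (B-Myb) read 2544, 2379.8 and 1915 against 1903, 1902 and 1775 (log2 fold change -0.28 ± 0.102, limma adjusted p = 0.068). MKI67, which encodes the proliferation antigen Ki-67, read 2643, 2725 and 2329 against 2408, 2271 and 2188 (-0.16 ± 0.079, limma adjusted p = 0.165). The third control was the lowest control in both MYBL2 and MKI67 and near their MFAP5 values, and without it both passed the test (limma adjusted p = 0.00471 and 0.0449).

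**Figure D3:**
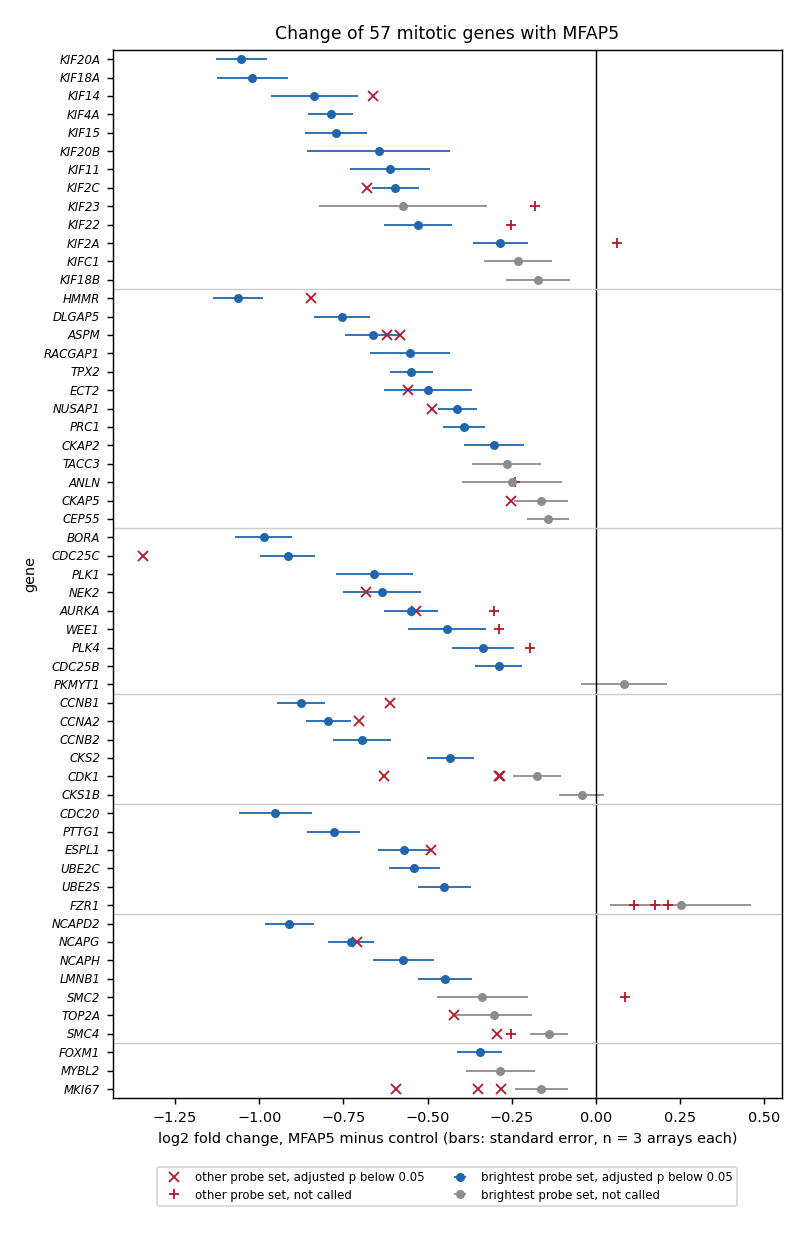
Log2 fold change of the 57 genes, MFAP5 minus control (horizontal axis), with the standard error as bars (n = 3 arrays each); blue points were lower at adjusted p below 0.05, grey points were not called, and red marks are other probe sets of the same gene past the brightness filter. Nearly all points lie left of 0, from -1.06 for HMMR to 0.25 for FZR1.

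The brightest probe set did not always show the largest change. Of the 57 genes 26 had another probe set past the filter, 35 in all, of which 23 fell, none rose and 12 were not called. Over all 27307 probe sets tested, 11.8% fell and 13.5% rose. Over all probe sets past the filter, 46 of the 57 genes had at least 1 that fell and none had 1 that rose. More probe sets give a gene more chances of a call, and this share was not counted over all genes. The 5 genes added in this way were CDK1, MKI67, TOP2A, CKAP5 and SMC4, whose brightest probe set was not called. For CDK1, 1 other probe set read 4859, 5282 and 4686 in control and 4162, 3864 and 4102 in MFAP5 cells (log2 fold change -0.29, limma adjusted p = 0.0117), and another gave -0.29 (limma adjusted p = 0.0113). Both were separated from control, as on the brightest probe set, and a dim one also fell (-0.63, limma adjusted p = 0.0482) with overlapping groups. The first of these is of the type that can share probes with other genes. For MKI67 all 3 other probe sets fell, from -0.28 to -0.59 on the log2 scale. The probe set with the largest of these falls read 891, 836 and 796 against 586, 513 and 574 (limma adjusted p = 0.00171). TOP2A fell on its other probe set (2482, 2558 and 3158 against 1932, 2085 and 2069.9, limma adjusted p = 0.00925), CKAP5 on its other one (-0.25, limma adjusted p = 0.0488) and SMC4 on 1 of 2 others (5533, 5259.9 and 4983 against 4155, 4428 and 4271, limma adjusted p = 0.00822). With the mean of all probe sets of each gene in place of the brightest, 44 of the 57 genes fell, these 5 included. That is 77.2%, beside 14.5% of all genes, while KIF2A (-0.11) and PLK4 (-0.27) lost their calls.

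**Figure D4:**
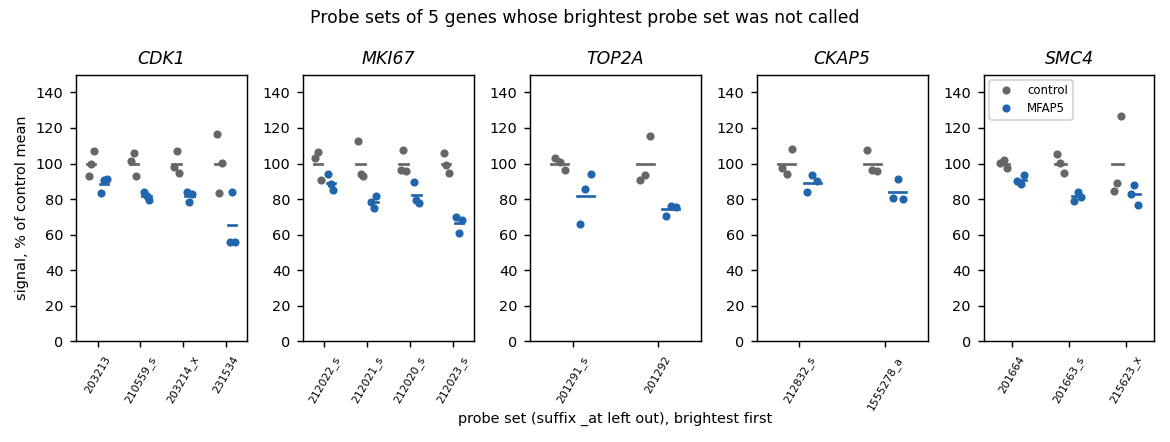
Signal of each probe set past the filter of CDK1, MKI67, TOP2A, CKAP5 and SMC4 (horizontal axis, brightest first) on the control (grey) and MFAP5 (blue) arrays, as percent of the control mean (vertical axis, from 0); short lines are group means (n = 3 arrays each). The brightest probe set of each gene shows a smaller gap between the groups than at least 1 dimmer one.

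Other parts of the division machinery give the frame for these falls. The list nearest in function, kinetochore and checkpoint genes, had a like pattern. Of 35 measured past the filter, 24 fell, 1 rose and 10 were not called (median log2 fold change -0.51). These are 68.6% lower and 2.86% higher, beside 15.3% and 14.6% of all genes. The kinase AURKB read 2443, 2413 and 2422 in control and 1128, 1042 and 977 in MFAP5 cells (2.32-fold lower, limma adjusted p = 4.1e-06), and its partner CDCA8 (borealin) was 1.82-fold and the kinetochore protein NDC80 1.79-fold lower. MIS12, a kinetochore scaffold, was the 1 gene that rose (1.33-fold, limma adjusted p = 0.00274), a call lost on arrays centred on hybridisation controls, where 20 of the list fell. Kinesins best known outside mitosis, with kinesin light chains, were near the background: 3 fell, 5 rose and 15 were not called of 23 measured past the filter (median log2 fold change 0.14). That is 13% lower and 21.7% higher, beside 15.3% and 14.6% of all genes. With hybridisation controls 2 fell and 3 rose. On median-centred arrays 5 of them fell and 3 rose, so the balance of directions turned with the scaling. The largest called changes were those of KIF9 (1.88-fold lower), KIFC2 (1.7-fold higher) and KIF5A (1.7-fold lower). The KIF9 probe set is of the type that can share probes with other genes. Whether the mitotic and the other kinesins differ was not tested.

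Among subunits and regulators of cohesin, condensin II and the SMC5/6 complex, 20 genes were measured past the filter. Of these, 3 fell, 0 rose and 17 were not called (median log2 fold change -0.03). The share lower, 15%, was that of all genes (15.3%). The 3 were NSMCE1 of SMC5/6 (1.26-fold lower), CDCA5 (sororin, 1.24-fold lower) and the cohesin release factor WAPL (1.21-fold lower; limma adjusted p = 0.0142). At an unadjusted p below 0.05 the counts were 5 lower and 1 higher of 20, beside 2666 and 2515 of all 12216 genes. Centring on medians or on hybridisation controls gave 6 and 0 that fell. Subunits of the APC/C, listed with its inhibitor FBXO5, changed in both directions. Of 14 measured past the filter, 4 fell, 1 rose and 9 were not called. The median log2 fold change was -0.09, and 7 were lower on median-centred arrays. The shares, 28.6% lower and 7.14% higher, stand beside 15.3% and 14.6% of all genes. ANAPC15 was 1.49-fold and ANAPC4 1.31-fold lower and ANAPC13 1.37-fold higher (limma adjusted p = 0.000816, 0.00263 and 0.000762). Of phosphatases and their regulators that oppose CDK1, 2 fell, 3 rose and 8 were not called of 13 measured past the filter (median log2 fold change -0.03). These are 15.4% lower and 23.1% higher, near the 15.3% and 14.6% of all genes. ARPP19, an inhibitor of PP2A that acts at mitotic entry, read 7319, 7795 and 7291 in control and 11025, 11128 and 11117 in MFAP5 cells (1.49-fold higher, limma adjusted p = 8.66e-05). The phosphatase CDC14B (1.3-fold) and the PP2A catalytic subunit PPP2CB (1.19-fold) were higher as well. The 2 that fell were PPP1CC (1.18-fold lower) and ENSA (1.17-fold lower; limma adjusted p = 0.025 and 0.0131). In both, every MFAP5 array lay below every control array. Centring on medians or on hybridisation controls left 1 of this list higher and 3 or 0 lower.

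Genes of the DREAM and MuvB complexes, RB proteins and E2F factors, which set when cell cycle genes are transcribed, showed few calls. Of 18 measured past the filter, 1 fell, 0 rose and 17 were not called (median log2 fold change -0.03). These are 5.56% lower and 0% higher, beside 15.3% and 14.6% of all genes. The 1 called was TFDP2, a partner of E2F proteins (1.3-fold lower, limma adjusted p = 0.00728), with 1 called higher after quantile normalization. At an unadjusted p below 0.05, 1 of the 18 was lower and 4 higher, beside 2666 lower and 2515 higher of all 12216 genes. Among cyclins, kinases and CDK inhibitors of the G1/S step, more rose than fell: 1 fell, 7 rose and 7 were not called of 15 measured past the filter (median log2 fold change 0.30). This is 46.7% higher, beside 14.6% of all genes, and with hybridisation controls 4 rose and 1 fell. CDKN1A (p21), an inhibitor of CDKs, read 286, 267 and 288 in control and 521, 536 and 532 in MFAP5 cells, 1.89-fold higher (limma adjusted p = 0.000239). The inhibitor CDKN2B (p15) read 156, 94.8 and 105 against 185, 205 and 207, 1.71-fold higher (limma adjusted p = 0.0237). CCND1 (cyclin D1), which drives G1, was 1.57-fold higher (limma adjusted p = 0.000295), so both drivers and inhibitors of G1 progression were among those that rose. The gene that fell was CDK4 (1.32-fold lower, limma adjusted p = 0.00337), and on median-centred arrays 4 fell and 6 rose. Like the 57 genes, these lists were assembled with results of these data known.

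**Figure D5:**
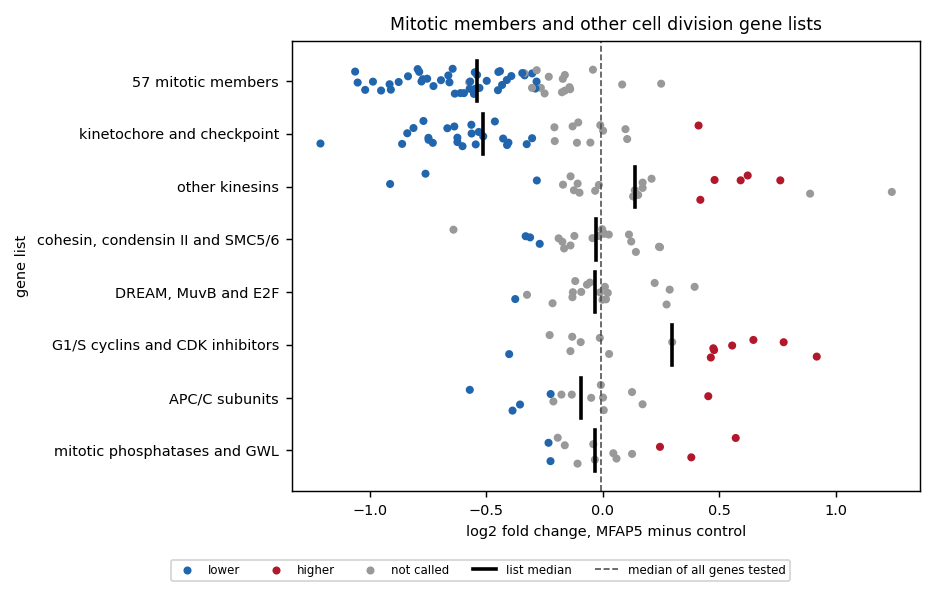
Log2 fold change, MFAP5 minus control (horizontal axis), of each gene past the filter in the 57 mitotic genes and 7 other gene lists (rows); blue genes were lower and red genes higher at adjusted p below 0.05, grey genes were not called, black bars are list medians and the dashed line is the median of all genes tested. The medians of the mitotic genes (-0.54) and of the kinetochore and checkpoint genes (-0.51) lie left of those of the other lists, which run from -0.09 to 0.30.

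Within the control group the genes did not share 1 order. Control replicate 3 was the highest control in 27 of the 57 genes and the lowest in 27, that is 47.4% each way, beside 34.5% and 40.9% of all genes tested. Genes such as KIF14, ECT2, RACGAP1 and NEK2 were highest there, and CDC20, PTTG1, UBE2C and CCNB2 lowest. In each of these named genes MFAP5 replicate 3 stood at the same end of its own group, but other genes went the opposite way. CCNB1 and LMNB1 were highest on control replicate 3 and lowest on MFAP5 replicate 3. CCNA2, CKS2, PLK4, SMC4 and TOP2A were lowest on control replicate 3 and highest on MFAP5 replicate 3. MFAP5 replicate 3 was the highest MFAP5 array in 24 of the 57 genes and the lowest in 23. Those are 42.1% and 40.4%, beside 30.7% and 39% of all genes tested. Whether same-numbered arrays share an effect in these genes was not tested. The mean of the 57 genes on control replicate 3 was still close to that on the other controls, with a centred log2 signal of 0.29 against 0.24 and 0.24. On the MFAP5 arrays it was -0.27, -0.26 and -0.23. The GAPDH 3'/5' ratio was -0.06 on the log2 scale on control replicate 3 and -0.20 and -0.14 on the other controls, and its part in this pattern was not tested. Without control replicate 3, 39 of the 57 genes fell.

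The 5 other genes whose signals followed the mean of the 57 most closely over the 6 arrays were EPB41, STMN1, OTUD1, MT1E and GUCY1B1, with Pearson correlations of 0.9973 to 0.9992. STMN1 (stathmin), a protein that destabilises microtubules, read 2032, 2007 and 2065 in control and 1464, 1445 and 1497 in MFAP5 cells (1.39-fold lower, limma adjusted p = 0.000714). MT1E, a metallothionein, read 2986, 2915 and 2924 against 261, 249.6 and 289 (11.1-fold lower, limma adjusted p = 4.82e-08). Its probe set is of the type that can share probes with related genes. The size of a fall plays no part in this measure, which compares the shape over arrays alone. The 6 arrays form 2 separate groups, so these values describe the match of the whole profile, mostly the step between the groups.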

How the data were processed

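Each sample was read on 1 array as biotin-labelled cRNA, per the labels' protocols. Deposited values are linear intensity, 1 signal from MAS5 for each probe set on each array; the submitters' processing notes name MAS5 without a version. Leaving out the top and bottom 2%, the mean signal of every array was 500.07. Arrays had therefore been scaled to 1 level, which hides any shift common to the bulk of transcripts. The deposited files hold no read depth; the number of arrays limits the precision, and p-values measure the spread between samples of 1 line, which the series describes as independent without saying whether they were separate cultures, so part of it may be technical.

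Of 54675 probe sets, 62 controls were left out and those with a mean log2 signal under the median (a signal of 53.68) removed, leaving 27307. Genes were named from the platform annotation, for probe sets with exactly 1 symbol. Groups were compared on log2 signals with limma 3.58.1 in R 4.3.3 (lmFit, eBayes with intensity trend, two-sided, Benjamini-Hochberg, threshold 0.05), checked on simulated data. The 57 genes and the comparison lists were chosen with earlier results of these data known. Array signals are printed for up to 4 called genes per role group with the largest change and for genes that went against their group. They are also printed, chosen after their values were seen, for genes with uneven arrays or differing probe sets. Other lists name up to 3 called genes, plus MIS12, CDK4, ENSA and PPP1CC, named after their values were seen. Same-numbered control and MFAP5 arrays were not taken as pairs. Alternatives were 3 other scalings, 50 added to each signal, 2 other filters, no intensity trend, the mean of all probe sets of a gene, a replicate block and each array left out.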

Additional observations from a re-analysis of the deposited data

How the results depend on the processing

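Under the 15 alternatives, 34 to 53 of the 57 genes fell and none rose; 33 of the 41 kept their call wherever they were measured. The count was 40 with quantile normalization, 53 centred on array medians, 37 centred on hybridisation controls, 34 without an intensity trend and 35 to 41 with 1 array left out. Centring on medians moved the median log2 fold change of all genes from -0.0084 to -0.15 and that of the 57 to -0.68; 3438 genes were then lower and 1118 higher, against 1869 and 1780. With hybridisation controls 1092 were lower and 915 higher, and without an intensity trend 1211 were lower. With 1 array left out, 1229 to 1841 genes were lower, fewest without MFAP5 replicate 2, and 1292 to 1754 higher. The cause was not tested. PKMYT1 changed sign on median-centred arrays (-0.0554), without control replicate 3 (-0.0074) and without MFAP5 replicate 1 (-0.0019), and reached 0.20 without control replicate 2. Over all probe sets past the filter, deviations of same-numbered arrays from their group means correlated at 0.09, -0.0071 and 0.17. Those of differently numbered arrays correlated at -0.18 to 0.10. The labels do not say that the numbers mark a shared day or batch, and they were not taken as pairs. These correlations do not single out the 57 genes, and a replicate effect shared between the groups in those genes was not tested. With the replicate block 48 of the 57 fell and 0 rose (ANLN, CDK1, KIF23, MYBL2, SMC2, TACC3 and TOP2A in addition, limma adjusted p 0.0117 to 0.0479), with 2194 genes lower and 2063 higher. The 3 arrays per group limit the detection of small changes.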
